A study of Mus musculus with 31 samples.

Results

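Interferon response genes are genes that cells switch on when interferons bind their receptors, and 9 of them were followed here, namely Irf7, Stat2, Ifit1, Ifit2, Ifit3, Isg15, Usp18, Oasl2 and Irgm1. They were chosen by symbol, as every probe whose platform annotation carries a member's name. This gave 17 of the 25697 probes and 9 of the 16593 genes on the array. The rule goes by name and uses no measured value, though the members were chosen with earlier results of these data known. The arrays came from 16-week-old male C57BL/6JRj mice kept for 14 days, 8 h per day, in intermittent hypoxia (IH) or in normoxic air (NO). Under IH the inspired oxygen fraction alternated between 5% and 21% in cycles of 60 s, with 30 s spent on each, and the NO mice received air at 21% in cycles of the same length. Liver was read in 8 NO and 7 IH samples, and epididymal adipose tissue, the fat pad beside the epididymis, in 8 NO and 8 IH samples.

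Type I interferons signal through a receptor pair and the kinases JAK1 and TYK2 to the complex ISGF3, which holds STAT2 and IRF9. ISGF3 binds interferon-stimulated response elements in the promoters of the induced genes, and interferon gamma acts on a partly separate set. In liver and adipose tissue these genes have a resting level that depends in part on tonic interferon, and macrophages and other immune cells of the tissue express many of them strongly.

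Such a response element contains a pair of GAAA cores, so the 250 bases before an annotated transcript start of each gene were searched on both strands for GAAA, any 2 bases and then GAAA again. The sequences are RefSeq promoter windows of build GRCm38.p6, and 8 of the 9 members had a window (Usp18 had none). Of all 32851 windows, 2.98% held a match. The members with a match were Ifit1, Ifit3, Isg15, Stat2 and Irgm1, and the windows of Irf7, Ifit2 and Oasl2 held none. The starts used for Irf7, Ifit2 and Oasl2 lay inside the annotated gene. The 250 bases before the outermost start of these genes were therefore only partly searched. The stretches of the members with a match whose signal was measured in both tissues are shown because the response element named above is built from these letters. Each is printed 5′ to 3′ on the strand of the gene, with matches in capitals. In Ifit3 and Stat2 the match is on the opposite strand and reads TTTC, any 2 bases and then TTTC.
Ifit3: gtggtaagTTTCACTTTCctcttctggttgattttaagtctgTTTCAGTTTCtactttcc
Isg15: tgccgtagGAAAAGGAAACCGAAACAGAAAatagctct
Stat2: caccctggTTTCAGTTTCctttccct
Irgm1: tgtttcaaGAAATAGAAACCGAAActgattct
The Ifit3 stretch lies at chr19:34583365-34583424 on the plus strand and holds 2 matches. The start used for Ifit3 is not the outermost one of the gene, so this stretch lies within the annotated gene. The Isg15 stretch lies at chr4:156200867-156200904 on the minus strand and holds 3 matches that overlap each other. The Stat2 stretch lies at chr10:128270268-128270293 on the plus strand and holds 1 match. The Irgm1 stretch lies at chr11:48871427-48871458 on the minus strand, with 2 overlapping matches that end close to the start of the gene. A match describes letters only, and binding was not measured.

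The members differed in whether the array saw them at all. A probe counted as detected on an array when its deposited detection p-value was below 0.01, and it was kept in a tissue when at least 7 of the liver arrays, or 8 of those of adipose tissue, detected it. In liver 6 of the 9 members were kept (Ifit3, Isg15, Stat2, Usp18, Oasl2 and Irgm1), and in adipose tissue 8 were kept, all but Ifit1. The Ifit1 probe was detected on 0 of 31 arrays. Irf7 was detected on 3 of 8 NO livers and 1 of 7 IH livers, and Ifit2 on 1 of 8 NO livers and 0 of 7 IH livers, so their liver levels lay mostly at background. Where several probes of a gene were kept, the brightest one stands for it, and values are log2 intensities after background correction and quantile normalization within a tissue. Levels of different genes come from different probes and cannot be ranked against each other.

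Between 8359 and 9293 probes were detected on the liver arrays and between 10261 and 12340 on the adipose arrays. The NO livers all lay on chip 1, the IH livers on chips 2 (replicates 16 and 17) and 3 (replicates 18 to 22), the NO adipose samples on chips 3 and 4, and the IH adipose samples on chips 5 and 6. Within a tissue, chip and exposure therefore cannot be told apart. Under NO, all 7 hepatocyte markers were higher in liver and all 6 adipocyte markers were higher in adipose tissue, and 0 of 7 epididymis markers were kept in either tissue. In adipose tissue a set of probes of unrelated genes read far lower on the IH arrays. Among them were the interferon kinase Jak1 (−3.33), with no detection on any IH array, and the fatty acid binding protein gene Fabp4 (−3.34). Neither gene had another kept probe.

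In the IH liver none of the 6 measured members differed from NO by limma at an adjusted p below 0.05. At that threshold 0.931% of all 6443 genes were called (60 genes). At an unadjusted p of 0.01 or less there was 1 member, Usp18, where 6.24% of all genes passed, and at an unadjusted p below 0.05 there were 2, Usp18 and Oasl2. No member had NO and IH livers that did not overlap (0.481% of all genes). The log2 difference was below 0 for 5 of the 6 members, with a median of −0.35 against −0.01 for all genes. With the IH arrays of chip 2 alone, 3 of the 6 were below 0 and the median was 0.02. With those of chip 3 alone, 5 were below 0 and the median was −0.51. These splits were made after the data were seen.

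**Figure D1:**
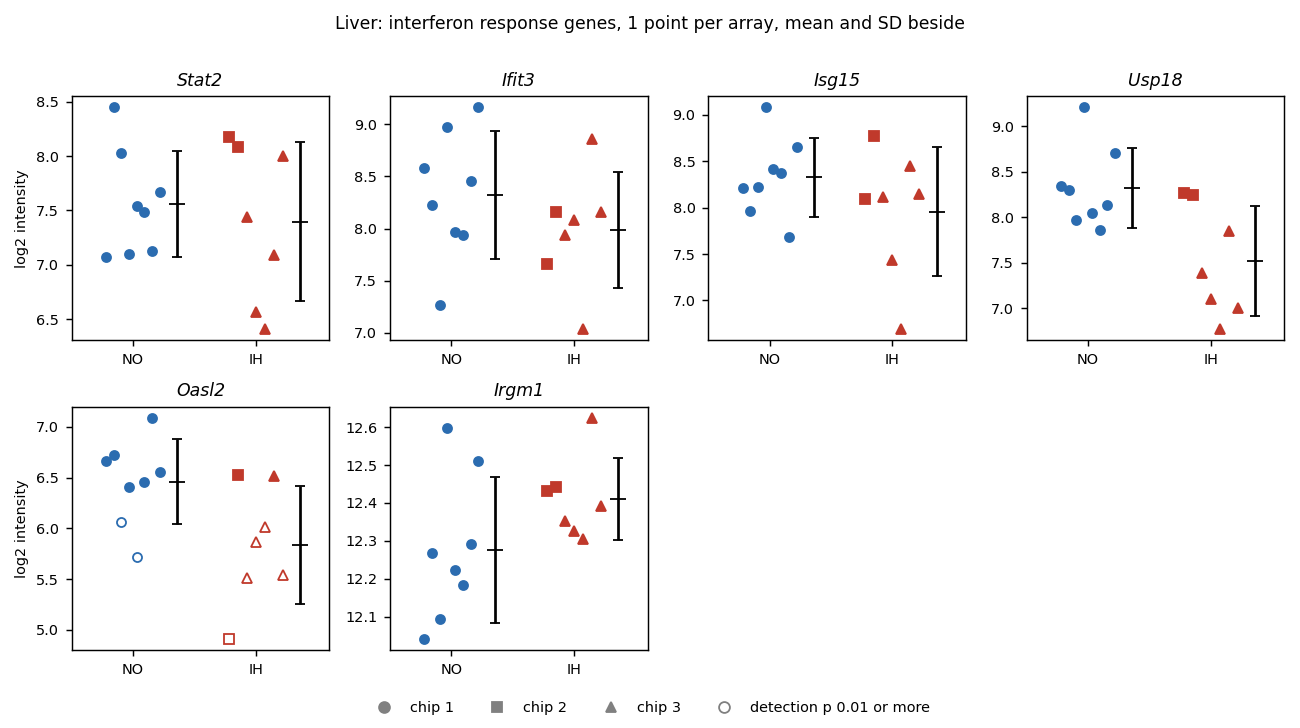
Log2 intensity of the 6 members measured in liver, in NO (blue) and IH (red) samples. Each point is 1 array, its shape gives the chip, an open point was not detected, and the bar beside each group is the mean with its SD. The Usp18 values of IH replicates 16 and 17 (squares) lie within the NO range, and all 5 IH livers of chip 3 (triangles) lie below every NO liver.

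Stat2, the interferon transcription factor that carries the ISGF3 activation domain, read 7.07, 7.51 and 8.45 (lowest, median and highest) in the 8 NO livers and 6.41, 7.44 and 8.18 in the 7 IH livers. IH replicates 19 and 20 (6.56 and 6.41) lay below every NO liver and the other 5 within the NO range, with a log2 difference of −0.16 (standard error 0.29, adjusted p = 0.83). Ifit3, whose protein belongs to a family that binds viral RNA and supports antiviral signaling, read 7.27, 8.34 and 9.16 under NO and 7.04, 8.08 and 8.86 under IH. The spread within each group was wider than the difference of −0.34 (standard error 0.28, adjusted p = 0.586).

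Isg15, which encodes a ubiquitin-like protein that is conjugated to other proteins, read 7.69, 8.30 and 9.08 in the NO livers and 6.69, 8.11 and 8.77 in the IH livers. IH replicates 19 and 20 lay below every NO liver and the other 5 within the NO range, and the difference was −0.37 (standard error 0.27, adjusted p = 0.521). Usp18 encodes the protease that removes ISG15 from proteins and also restrains signaling at the type I receptor. It read 7.86, 8.22 and 9.20 in the NO livers and 6.77, 7.38 and 8.26 in the IH livers, a difference of −0.81 (standard error 0.25, adjusted p = 0.130). This was the member with the smallest p in liver, at rank 274 of 6443 genes.

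The Usp18 values separated by chip within the IH group. Replicates 16 and 17, on chip 2, read 8.26 and 8.24, close to the NO median. Replicates 18 to 22, on chip 3, read 7.38, 7.10, 6.77, 7.84 and 7.00. With the chip 2 arrays alone as the IH group the difference was −0.07 (adjusted p = 0.975), and with the chip 3 arrays alone it was −1.10 (adjusted p = 0.0392). The split by chip was made after the values were seen, so these p-values only describe it and are no separate test. A second kept Usp18 probe had a difference of −0.60 (adjusted p = 0.252 over all probes), with the chip 2 arrays at a mean of 6.78, the chip 3 arrays at 5.99 and the NO arrays at 6.81.

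Oasl2, of the family of 2′-5′ oligoadenylate synthetase-like proteins, read 5.72, 6.51 and 7.09 in the NO livers and 4.91, 5.86 and 6.53 in the IH livers. It was detected on 6 of 8 NO and 2 of 7 IH arrays, so most IH values lay at background, and the difference was −0.62 (standard error 0.24, adjusted p = 0.204). Irgm1, an immunity-related GTPase that acts at membranes in defence against intracellular pathogens, read 12.04, 12.25 and 12.60 under NO and 12.31, 12.39 and 12.63 under IH. Its difference of 0.13 (standard error 0.09, adjusted p = 0.505) was the only one above 0, and its other kept probe read −0.43 (adjusted p = 0.186 over all probes). The probe that is not brightest ranged from 8.45 to 9.48 under NO and from 8.30 to 9.02 under IH, so these groups overlapped too.

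The other genes of the pathway in liver were described by lists. Of 3 interferon receptor genes, 4 signal genes (Jak1, Jak2, Tyk2 and Irf9), 4 other interferon regulatory factors, 5 sensors and adaptors, 7 interferon-inducible GTPases and 4 negative regulators kept in liver, none was called. The 2 with the smallest p in each of these lists had adjusted p-values between 0.171 and 0.698, the lowest being those of Irf2 (0.37, adjusted p = 0.171), a regulatory factor that opposes Irf1, and Gbp2 (−0.73, adjusted p = 0.195), a guanylate-binding GTPase. Of 19 interferon genes on the array 1 was kept, Ifna6 (−0.21, adjusted p = 0.389). Of 25 other induced genes, 19 were below 0 with a median of −0.22, and 1 was called. This was Tor3a, a torsin family ATPase gene, at −0.91 (adjusted p = 0.0353), and its other probe read −0.36. Markers of several cell types lay below 0 as well, and none of them was called. Of 7 macrophage markers 5 were kept and all 5 lay below 0, with a median of −0.37. Their summed linear signal ranged from 2016 to 3362 under NO and from 1535 to 3096 under IH. The 2 kept neutrophil markers (median −0.96), the 2 kept endothelial markers (median −0.11) and the plasmacytoid dendritic cell marker Tcf4 (−0.21) also lay below 0. The natural killer cell marker Prf1 read 0.19, and 3 of 7 hepatocyte markers lay below 0. No T cell marker of 6 and no B cell marker of 3 was kept in liver. In bulk tissue, fewer cells of a type and less RNA per cell cannot be told apart, and the part of such cells in the members' values was not tested.

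In the IH adipose tissue 2 of the 8 measured members were lower by limma at an adjusted p below 0.05, Irgm1 and Oasl2, and none was higher. In this tissue 32.1% of all 8207 genes were called, 17.6% higher and 14.5% lower, so the members' 2 of 8 is a share near that of the genes at large. The members' median difference was 0.16, against 0.11 for all genes, and 3 of the 8 were below 0. For 1 member, Irgm1, NO and IH samples did not overlap (10.9% of all genes).

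**Figure D2:**
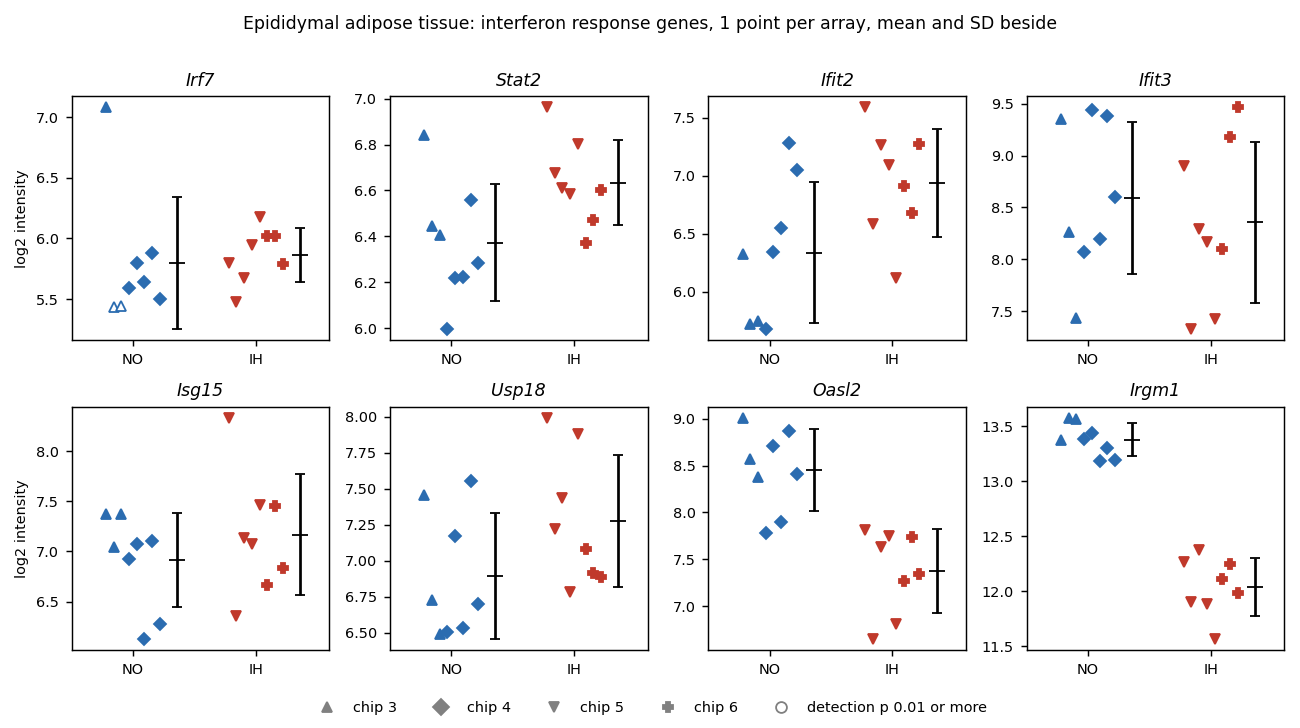
Log2 intensity of the 8 members measured in epididymal adipose tissue, in NO (blue) and IH (red) samples, drawn as for liver with the chips by shape. Every IH value of Irgm1 (11.56 to 12.38) lies below every NO value (13.19 to 13.58), Oasl2 overlaps at its edge, and NO replicate 1 stands apart for Irf7 at 7.08.

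Irf7, the transcription factor that amplifies type I interferon production and is itself interferon-induced, read 5.44, 5.62 and 7.08 (lowest, median and highest) in the 8 NO samples and 5.48, 5.87 and 6.18 in the 8 IH samples. NO replicate 1 was the highest of all 16, and the next NO sample read 5.88. The difference was 0.07 (standard error 0.20, adjusted p = 0.823). Stat2 read 6.00, 6.35 and 6.84 under NO and 6.37, 6.61 and 6.96 under IH, and the groups overlapped. Its difference of 0.26 (standard error 0.12) did not pass the adjustment (adjusted p = 0.0977). It passed in 1 of 16 fits with an array left out, the one without NO replicate 1 (0.33, adjusted p = 0.0290). In the 12 other settings it was not called.

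Of the Ifit genes, Ifit3 read 7.43, 8.43 and 9.43 under NO and 7.33, 8.23 and 9.46 under IH, with a difference of −0.23 (standard error 0.35, adjusted p = 0.646). The groups covered nearly the same range. Ifit2, another RNA-binding family member, was read by 2 kept probes that lay on opposite sides of 0. The brightest read 5.68, 6.33 and 7.28 under NO and 6.12, 7.00 and 7.59 under IH, a difference of 0.60 (standard error 0.26, adjusted p = 0.0805). The other read 6.13, 6.55 and 7.32 under NO and 5.46, 6.04 and 6.45 under IH, a difference of −0.63 (standard error 0.18, adjusted p = 0.0126 over all probes). With the fainter probe in place of the brightest Ifit2 would be called lower (adjusted p = 0.0124), so the array gives no direction for Ifit2. Of the 1984 genes with several kept probes in adipose tissue, 7.91% had probes that moved in opposite directions at an unadjusted p below 0.05, against 0.476% of 1472 in liver.

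Isg15 read 6.12, 7.06 and 7.38 under NO and 6.36, 7.11 and 8.33 under IH, where replicate 15 was the highest of all 16 samples, and the difference was 0.25 (standard error 0.25, adjusted p = 0.472). Usp18 read 6.49, 6.71 and 7.56 under NO and 6.79, 7.15 and 7.99 under IH. Its difference of 0.38 (standard error 0.21) was not called (adjusted p = 0.179), and its second kept probe read 0.55 (adjusted p = 0.0260 over all probes). The second probe was detected on 4 of 8 NO and 8 of 8 IH samples, and it would be called higher in place of the brightest (adjusted p = 0.0256). In adipose tissue both Usp18 probes thus lay above 0, and in liver both lay below 0.

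Oasl2 read 7.78, 8.49 and 9.01 in the NO samples and 6.64, 7.49 and 7.81 in the IH samples. Of the IH samples 7 lay below every NO sample, and replicate 15, at 7.81, lay above the lowest NO sample only. Oasl2 fell by 1.08 on the log2 scale (standard error 0.21, adjusted p = 8.17e-04), with all 8 IH samples below the NO mean of 8.46 ± 0.44 (SD, n = 8). The difference was −1.12 against the IH arrays of chip 5 and −1.01 against those of chip 6. Oasl2 had 1 kept probe, and the second probe on the array was detected on no sample.

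Irgm1 read 13.19, 13.38 and 13.58 in the NO samples and 11.56, 12.05 and 12.38 in the IH samples by its brightest probe. This probe fell by 1.34 on the log2 scale (standard error 0.11, adjusted p = 4.97e-08), from 13.38 ± 0.15 (SD, n = 8) to 12.04 ± 0.26 (SD, n = 8). The other kept Irgm1 probe read 6.50, 7.00 and 7.60 under NO and 6.66, 7.17 and 7.61 under IH, a difference of 0.16 (standard error 0.16). The call of Irgm1 thus rests on 1 of its 2 kept probes, and with the fainter probe in its place the gene was not called (adjusted p = 0.447).

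**Figure D3:**
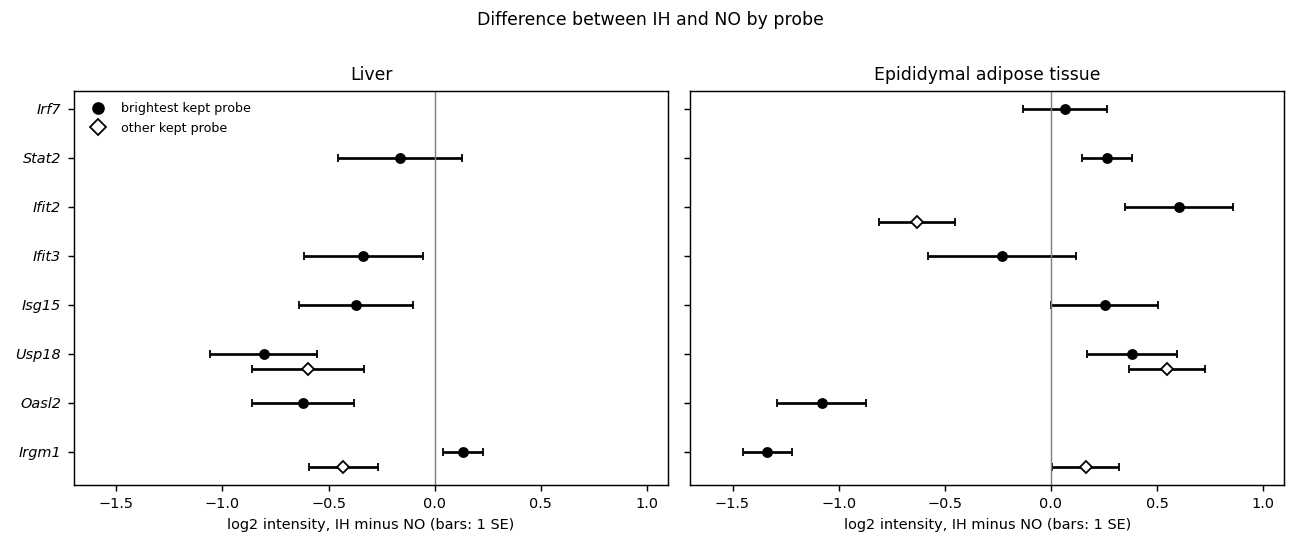
Difference in log2 intensity between IH and NO (x axis, bars of 1 standard error) for each kept probe of each member in liver and in adipose tissue. Filled circles are the brightest kept probe and open diamonds the other kept probe. The probes of Usp18 lie on the same side of 0 within each tissue, while those of Ifit2 in adipose tissue (0.60 and −0.63) and of Irgm1 in both tissues lie on opposite sides.

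The rest of the pathway in adipose tissue held calls in both directions. In this tissue 32.1% of all 8207 genes were called, 17.6% higher and 14.5% lower. Among 4 receptor genes, Il10rb (−2.07, adjusted p = 3.01e-09), a subunit of the interferon lambda and interleukin 10 receptors, and Ifngr2 (−1.50, adjusted p = 1.28e-04), a subunit of the interferon gamma receptor, were lower, but the other kept Ifngr2 probes read −0.01 and 0.25. Of the signal genes, Jak1 was lower (−3.33, adjusted p = 1.71e-12), and Jak2 (0.30), Tyk2 (0.18) and Irf9 (0.25) were not called. Il10rb and Jak1 had no other kept probe to set beside these values. Irf8, a regulatory factor of myeloid cells, was the only 1 of 6 other regulatory factors called, at −0.80 (adjusted p = 0.00164). Mavs, the mitochondrial adaptor of the RNA sensors, was the only 1 of 7 sensors and adaptors called, at 0.37 (adjusted p = 0.00477).

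Of 28 other induced genes in adipose tissue, 2 were higher and 5 were lower, where 17.6% of all genes were higher and 14.5% lower. Of the 28, 16 lay below 0, with a median of −0.08 against 0.11 for all genes. The higher ones were Adar (0.68, adjusted p = 0.00267), an RNA editing enzyme gene whose other kept probes read −0.66 and 0.26, and Ifitm3 (0.42, adjusted p = 0.0195), whose protein blocks viral entry. The lower ones were Tor3a (−2.25, with 0.06 at its other probe), the ubiquitin ligase gene Trim25 (−1.56), Parp12 (−0.88), Ifi27l2a (−1.50) and Cmpk2 (−0.77). Apart from Tor3a, these lower genes had no other kept probe. Of 7 interferon-inducible GTPases 6 lay below 0 and Gbp5 was called (−0.65, adjusted p = 0.0325). Of 4 negative regulators all lay above 0, and Pias1, a SUMO ligase gene, was called (0.32, adjusted p = 0.0131).

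Single markers of other cell types also differed in adipose tissue, while further markers of the same lists did not pass the test. The summed linear signal of 2 kept natural killer cell markers of 5 ranged from 2050 to 4217 under NO and from 646 to 1391 under IH. These ranges do not overlap, as was so for 10.9% of all genes taken singly. Of these 2 markers, Prf1 was at −2.09 as a log2 difference and Nkg7 at 0.16 (not called). The NO mean was 11.59 for Prf1 and 5.51 for Nkg7, so the sum mostly follows the 1 kept probe of Prf1. For 3 kept macrophage markers of 7 the sum ranged from 1537 to 9492 under NO and from 1224 to 10244 under IH. Of these, Adgre1 read −2.81 (−1.06 at its other probe), Vsig4 −0.54 and Lyz2 −0.03, the last 2 not called. The other kept Lyz2 probe read −3.68, so the Lyz2 probes conflict. For 2 kept plasmacytoid dendritic cell markers of 3, Siglech read −2.69 and Tcf4 0.17 (not called), and the sums ranged from 4665 to 5553 under NO and from 2135 to 7434 under IH. No T cell marker of 6 was kept. Of 6 adipocyte markers 5 lay below 0 and 2 were called lower, Fabp4 (−3.34) and Retn (−0.76), and their sum ranged from 50782 to 77993 under NO and from 21821 to 65318 under IH. Of 5 mesothelial markers Krt19 was called higher (1.34), and Lrrn4 (−1.89) and Wt1 (−0.81) lower, and of 4 endothelial markers Kdr was called lower (−0.62). The part of such cells in the members' values was not tested.

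Levels were then set side by side between tissues after all 31 arrays had been normalized together, over the 8 members detected on at least 7 arrays. Under NO, 6 of the 8 differed between liver and adipose tissue by limma, where 73.0% of all 8905 genes were called. Higher in liver were 3 members (29.8% of all genes), namely Isg15, Stat2 and Usp18, and lower in liver were 3 (43.3% of all genes), namely Ifit2, Oasl2 and Irgm1, of which Ifit2 lay mostly at background in liver. For 5 of the 8 the NO groups did not overlap (43.1% of all genes). The median of all genes was −0.20 here. With the authors' processed values, which were normalized within each tissue, it was −0.88, and Isg15, Stat2 and Usp18 then read −0.10, −0.22 and −0.086 as differences and were no longer called, while Irf7 (−0.42, adjusted p = 7.97e-05) and Ifit3 (−1.30, adjusted p = 9.24e-06) were called lower. Relative to the median of all genes the direction of these 3 was the same under both, from 0.66 to 0.79 above it with the processed values and from 1.45 to 1.67 above it otherwise.

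**Figure D4:**
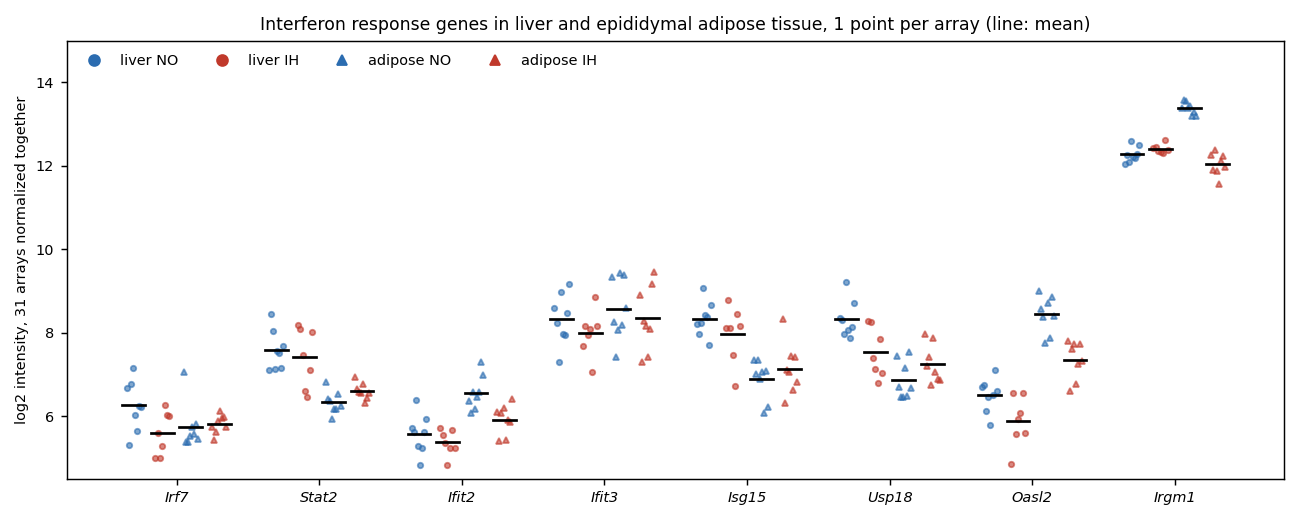
Log2 intensity of the 8 members in the 4 groups after joint normalization of the 31 arrays, with 1 point per array, circles for liver, triangles for adipose tissue, blue for NO, red for IH and a line at each mean. Values are to be compared within a gene only. Isg15, Stat2 and Usp18 lie higher in NO liver than in NO adipose tissue, and Oasl2 and Irgm1 lie lower.

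Usp18 read 7.87, 8.23 and 9.21 in NO liver and 6.45, 6.68 and 7.54 in NO adipose tissue (lowest, median and highest, joint scale). The order of its groups by mean was NO liver (8.33), IH liver (7.53), IH adipose (7.25) and NO adipose (6.86), and neighbours in this order overlapped. The NO difference was 1.47 (standard error 0.24, adjusted p = 1.86e-06) and its other probe gave 1.41. Isg15 read 7.70, 8.31 and 9.08 in NO liver and 6.07, 7.03 and 7.36 in NO adipose tissue, a difference of 1.46 (standard error 0.27, adjusted p = 1.39e-05). Stat2 read 7.10, 7.53 and 8.46 against 5.94, 6.30 and 6.81, a difference of 1.25 (standard error 0.22, adjusted p = 7.13e-06). For each of these 3 genes every NO liver lay above every NO adipose sample.

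Oasl2 read 5.79, 6.55 and 7.12 in NO liver and 7.77, 8.48 and 9.01 in NO adipose tissue, a difference of −1.94 (standard error 0.23, adjusted p = 7.43e-09). The groups did not overlap. The Ifit2 probe that was brightest over all arrays was the one that was fainter within adipose tissue. It was detected on 1 of 8 NO livers and all 8 NO adipose samples. Its fitted difference of −0.99 was called but sets no size, since 7 of the 8 liver values lay at background. Irgm1 read 12.04, 12.25 and 12.60 in NO liver and 13.19, 13.38 and 13.58 in NO adipose tissue by its brightest probe, a difference of −1.10 (standard error 0.10, adjusted p = 4.41e-11). Its other kept probe went the other way, from 6.46, 6.97 and 7.58 in adipose tissue to 8.46, 9.21 and 9.49 in liver (2.16, standard error 0.16), so the array gives no direction between tissues for Irgm1. Irf7 (0.52, standard error 0.24, adjusted p = 0.0542) and Ifit3 (−0.25, standard error 0.32, adjusted p = 0.502) were not called.

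Chip 3 held both 5 IH livers and 3 NO adipose samples, so a tissue difference could be read within it, although with exposure differing. There Oasl2 and Ifit2, mostly at background in these livers, and Irgm1 by its brightest probe (−1.11) were lower in every liver sample than in every adipose sample. Stat2 (0.60), Isg15 (0.54) and Usp18 (0.38) had the same sign as under NO, but their groups overlapped, and Irf7 read −0.22.

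The difference between IH and NO, here called the IH effect, differed between tissues for 2 of the 8 members, Usp18 and Irgm1. This is a share near the 22.3% of all genes that were called. Chip and exposure cannot be told apart in either tissue, so the IH effect includes any effect of the chips. The difference of the IH effects, liver minus adipose, was −1.19 for Usp18 (standard error 0.34, adjusted p = 0.0108), and its second probe gave −1.12. The Usp18 difference between IH and NO was below 0 in liver and above 0 in adipose tissue, and it was called in neither tissue alone. The difference was −0.46 (adjusted p = 0.540) when only the liver IH arrays of chip 2 were used and −1.48 (adjusted p = 0.00121) with those of chip 3. This split too was made after the values were seen, and its p-values are descriptions only. For Irgm1 the difference of the IH effects was 1.47 (standard error 0.15, adjusted p = 2.20e-09) by the brightest probe and −0.60 by the other. The array thus gives no direction for Irgm1 here. Irf7 read −0.72 (standard error 0.34, adjusted p = 0.136), Isg15 −0.62, Stat2 −0.43, Ifit3 −0.10, Ifit2 0.44 and Oasl2 0.47, none of them called. In liver Irf7, Ifit2 and the IH values of Oasl2 lay mostly at background, so their values here set no size. The Ifit2 value comes from the probe that was fainter within adipose tissue. The probe that was brightest there gave −0.64.

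Within a group the members varied more than most genes, with Irgm1 by its brightest probe and, in adipose tissue, Stat2 as exceptions. In liver the within-group SD was 0.50 to 0.61 for Ifit3, Isg15, Stat2, Usp18 and Oasl2, against a median of 0.29 over all genes, and 0.16 for Irgm1. In adipose tissue it was 0.76 for Ifit3, 0.54 for Ifit2 and Isg15, 0.45 for Usp18, 0.44 for Oasl2, 0.42 for Irf7, 0.22 for Stat2 and 0.21 for Irgm1, against a median of 0.32. The other kept Irgm1 probe had an SD of 0.36 in NO liver, 0.28 in IH liver and 0.32 in each adipose group. The members also tended to be high or low in the same arrays. After subtracting group means, Pearson's r was above 0 in 12 of 15 pairs of members in liver (median 0.43, n = 15 arrays) and in 24 of 28 in adipose tissue (median 0.37, n = 16 arrays). The arrays share chips, so these are descriptions. The closest pairs were Isg15 and Usp18 in liver (r = 0.73), which encode the modifier and its protease, and Stat2 and Usp18 in adipose tissue (r = 0.72).

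**Figure D5:**
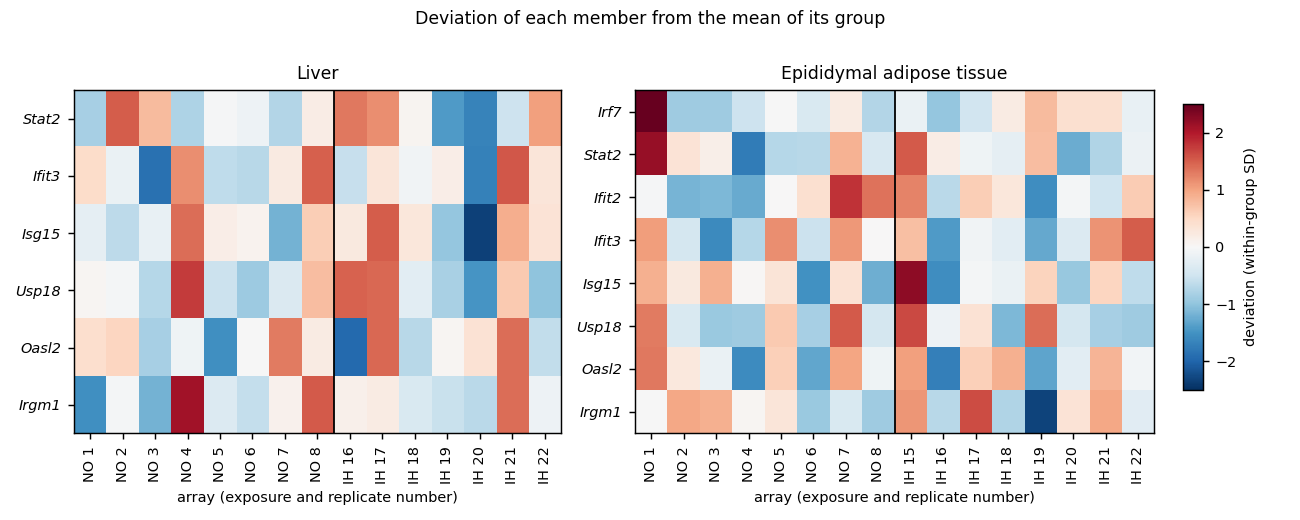
Deviation of each member from the mean of its exposure group, in units of its within-group SD (red above, blue below), for each liver array and each adipose array. In liver NO replicate 8 and IH replicate 17 have all 6 members above the group mean, and NO replicates 3, 5 and 6 and IH replicate 20 have 1 of 6 above it. In adipose tissue IH replicate 15 has 7 of 8 above it, and NO replicate 6 and IH replicate 16 have 1 of 8.

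Single arrays had most members on the same side of the group mean. In liver NO replicate 8 and IH replicate 17 had all 6 members above their group mean, and NO replicates 3, 5 and 6 and IH replicate 20 had 1, with a mean standardised deviation of −1.25 in IH replicate 20. In adipose tissue IH replicate 15 had 7 of 8 members above the mean (1.17 on average), and NO replicate 6 (−0.72) and IH replicate 16 (−0.87) had 1. NO replicates 1 and 7 had 6 and 7 of 8 members above it. The genes whose deviations followed the members' mean most closely were Igtp in liver (r = 0.89), an interferon-inducible GTPase of the same family as Irgm1, and Mx2 in adipose tissue (r = 0.88), an interferon-induced GTPase that inhibits viruses. Both were among the 8 most similar in each tissue, with Mx2 at 0.78 in liver and Igtp at 0.88 in adipose tissue. The others were Selenos (0.81), Top3b (0.80), Mrps25 (0.79), Pip4k2b (0.78), Qrich1 (0.77) and Birc2 (0.76) in liver, and Cox8b (0.88), Klhl17 (0.88), 1110038F14Rik (0.84), Fbxo46 (0.82), Trex1 (0.82) and Arl2 (0.82) in adipose tissue.

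Irf7 was set against the other members array by array. In adipose tissue Pearson's r over 16 arrays ranged from −0.16 with Irgm1 to 0.50 with Stat2 over 7 relations, and none passed the Benjamini-Hochberg adjustment in a two-sided permutation test (adjusted p from 0.206 to 0.932). For Stat2 Spearman's rho was 0.07 (permutation p = 0.805, adjusted p = 0.833), and r became −0.16 without the 2 arrays farthest from the Irf7 median. In this setting the Stat2 relation rests on those samples. Without the same 2 arrays r rose for Ifit2 (0.03 to 0.36), Ifit3 (0.41 to 0.64) and Oasl2 (0.42 to 0.53). It fell for Usp18 (0.46 to 0.16) and Isg15 (0.32 to 0.18), and for Irgm1 it went from −0.16 to 0.01. With deviations from the mean of exposure and chip, rho for Stat2 was 0.49 and r without the 2 farthest arrays 0.35. None of the 7 relations passed in that setting. In liver, where Irf7 was mostly at background, none of 6 relations passed (adjusted permutation p from 0.658 to 0.850 for r). Over the 15 replicate numbers present in both tissues, a member's deviation in liver was set against its deviation in adipose tissue. The highest r were 0.43 for Oasl2 and 0.42 for Ifit3 (permutation p = 0.124 and 0.131, adjusted p = 0.394 for both), rho was 0.49 and 0.46 (adjusted permutation p = 0.299 for both), and r was 0.42 and 0.24 without the 2 farthest samples. None of the 6 relations passed, and the labels do not say that a number marks the same mouse.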

How the data were processed

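RNA from liver and epididymal adipose tissue was read on bead arrays (250 ng of RNA per sample). For extraction the labels give a DNase-treated spin column, and the methods name TRIzol. The authors deposited linear intensity values and a detection p-value per probe, exported from GenomeStudio, for 31 arrays and 25697 probes. The deposited table is called not normalized, yet sorted values of any pair of arrays differ by at most 1.05 percent. A further table deposited by the authors holds processed intensity values, normalized within each tissue, which were used as an alternative. Genome builds and later steps are not given in the sources used here.

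Of all probes, 23978 carried 1 gene symbol and 1719 none, by the platform annotation. Intensities were background-corrected and quantile normalized to a log2 scale with neqc (limma 3.58.1 in R 4.3.3, offset 16), per tissue for IH against NO and over all 31 arrays for tissues. Probes detected at p below 0.01 on at least 7 liver, 8 adipose or 7 of all arrays were kept. Genes were tested with lmFit and eBayes of limma, two-sided, with Benjamini-Hochberg adjustment over all genes and a threshold of 0.05. limma stood in for the permutation test of the methods. Correlations used 100000 permutations within exposure groups. The fits were tested on simulated data. The study calls the liver arrays of a group biological replicates, and no source says so of the adipose arrays, whose p-values measure the spread between samples. Precision is limited by how few arrays each group holds.

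The members and gene lists were chosen with earlier results of these data known. All 9 members are named, and of each interferon list the genes called, at most the 6 with the smallest p, or the 2 with the smallest p where none was called. Ifitm3 and the markers of other cell types were named after their values were seen. Likeness was ranked by Pearson's r, and the 8 highest per tissue are named. Alternatives were other normalizations, filters, probe rules, array weights, chip or replicate number as a block, and each array left out. Plots were drawn with matplotlib.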

Additional observations from a re-analysis of the deposited data

Results flagged for a closer look

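In adipose tissue the Irf7 value of NO replicate 1 stood apart from its group, at 7.08 against 5.88 for the next of the 8 samples. In liver the Irgm1 value of IH replicate 21 stood apart, at 12.63 against 12.44 for the next of the 7 samples, a gap that only just passed the critical ratio. These were 2 of 28 gene and group combinations examined, and chance gives about 1 in 20. The IH effect, which cannot be told apart from chip, differed between tissues by a test of the difference itself for Usp18, at −1.19 (liver minus adipose, log2). It also differed for Irgm1, at 1.47 by its brightest probe, while its other kept probe gave −0.60.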

How the results depend on the processing

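Precision was limited by 7 or 8 arrays a group, by signal near background for Irf7, Ifit2 and Oasl2 in liver, and by chips that hold a single exposure within a tissue. The alternatives with single chips or the faintest kept probe were chosen after seeing the data. Among the planned settings that keep all arrays, the count of members called stayed at 0 in liver and 2 in adipose tissue. It was 4 to 7 of the members measured for tissues and 2 or 3 for the difference of the IH effects. With arrays left out in turn it was 0 in liver, 2 to 3 in adipose tissue, 6 to 7 for tissues and 2 to 3 for the difference of the IH effects. Only 1 member was called in liver (Usp18) with the IH arrays of chip 3 alone, and 1 for the difference of the IH effects with the faintest kept probe (Usp18) or with the chip 2 liver IH arrays alone (Irgm1).

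Replicate numbers were shared between tissues, and of 15 same-numbered pairs 8 had a correlation above 0.1 over all genes (−0.03 to 0.21) and 8 matched best with their own number, a hint from the data. The labels do not say that a number marks a mouse and not every pair passed 0.1, so the samples were not treated as pairs. With the replicate block 7 members were called between tissues, Irf7 being added (adjusted p = 0.0478), and 2 for the difference of the IH effects. In adipose tissue Oasl2 was called in all 28 alternatives, from −1.18 to −0.75, and Irgm1 in 27. All 28 read Oasl2 from the same probe, so they cannot show whether another probe would differ. Usp18 kept its call for the difference of the IH effects in all settings but the chip 2 one, with an adjusted p of 0.0490 with chip as a random block.

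Changes of sign were as follows, and their cause was not tested. In liver Irgm1 read −0.15 with the mean of the kept probes and −0.43 with the faintest, Stat2 from −0.29 to 0.00020 as single arrays were left out, above 0 without IH replicate 20, and 0.57 with chip 2 alone, and Isg15 0.11 with chip 2 alone. In adipose tissue Ifit2 read −0.014 with the mean and −0.63 with the faintest probe, Irgm1 0.16 with the faintest probe, and Ifit3 0.0052 with array weights and 0.32 with chip 6 alone. Between tissues Irf7 read −0.42, Isg15 −0.10, Stat2 −0.22 and Usp18 −0.086 with the authors' processed values, and Irgm1 0.53 with the mean and 2.16 with the faintest probe. With these processed values 9.60% of the genes called between tissues were higher in liver, against 40.8% otherwise. For the difference of the IH effects Ifit2 read −0.33 with the processed values, −0.10 with the mean and −0.64 with the faintest probe. Over all arrays the faintest kept Ifit2 probe was the one that was brightest within adipose tissue. Irgm1 read −0.60 with the faintest probe and Stat2 0.29 with the chip 2 liver IH arrays alone. Ifit3 read from −0.25 to 0.067 as single arrays were left out, above 0 in 5 of 31.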
